A study of Homo sapiens with 12 samples.

Results

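The 9 genes described here are MAT2A, MAT2B, AHCY, AHCYL1, MTR, MTRR, CBS, CTH and MTAP. They encode enzymes of the methionine cycle, of transsulfuration and of the first step of methionine salvage, or proteins that regulate or resemble them. They were taken by symbol from 24359 symbols per table, and where a symbol had several transcripts, the transcript with the highest average over the table's 6 libraries stood for it. All 9 were tested in PC-3M cells and 2 of the 9, MAT2A and AHCYL1, in MCF10A cells. The study asks in its title how KMT9a, the catalytic subunit of a histone H4 lysine methyltransferase, bears on metabolism and proliferation of prostate cancer cells. Total RNA was sequenced from PC-3M, a metastatic subline of the prostate cancer line PC-3 at passage 11, and from MCF10A, an immortalised breast epithelial line that does not form tumours, at passage 13. In each line 3 libraries carried control siRNA and 3 carried siRNA against KMT9a, giving 4 groups and 12 libraries; the labels name no siRNA sequence, dose or time, and every group was transfected with an siRNA. The libraries are labelled biological replicates with no word on separate cultures, so the p-values measure the spread between these libraries, which may be technical.

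The methionine cycle makes and spends S-adenosylmethionine (SAM), the methyl donor of nearly all cellular methyltransferases, including those that act on histones. Methionine is joined to adenosine to give SAM, methyl transfer leaves S-adenosylhomocysteine, and hydrolysis of that product frees homocysteine. Homocysteine is either methylated back to methionine with a methyl group from folate, or committed through transsulfuration to cystathionine and then cysteine, a building block of glutathione. Polyamine synthesis consumes SAM on another branch and leaves methylthioadenosine, which the salvage pathway returns to methionine.

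Sequencing depth in genes was 40236218 to 53401602 read ends per PC-3M library, where 2 read ends make a pair, with 17067 to 17540 genes detected. For MCF10A it was 181064 to 255642 read ends, with 2298 to 2594 genes detected. In MCF10A the transcripts of genes that every cell uses were nearly missing: GAPDH had 0 to 16 read ends per library, ACTB 0 to 11, EEF1A1 0 to 7 and RPLP0 0 to 7, and the basal keratin KRT5 was listed at 0 in all 6, whereas KRT17 had 84 to 430. The cause of that pattern was not tested, and a gene at 0 in MCF10A is therefore given only as listed at 0. Counted as read pairs, MCF10A control libraries 1 and 2 differed by less than sampling noise (chi-square over degrees of freedom 0.791). The pairing was inferred from the values, and counted as single read ends the ratio would be higher. MCF10A values are therefore given per library and, with these 2 libraries averaged as 1 sample, again below. KMT9a library 2 stood apart from the other KMT9a libraries in both lines, with a ratio of 11.0 and 13.3 in PC-3M and of 14.6 and 20.7 in MCF10A, against 2.37 and 2.49 for the remaining pair. N6AMT1, the gene of KMT9a, fell in PC-3M from 11.5 ± 0.529 to 2.81 ± 0.213 CPM (mean ± SD, n = 3), with a log2 change of -2.02 (limma adjusted p = 3.46e-09). CPM here is the read count scaled to a library total that was adjusted by the trimmed mean of M-values (TMM). TRMT112, which encodes the partner subunit of KMT9a, fell by 0.51 on the log2 scale (limma adjusted p = 2.43e-06). N6AMT1 was listed at 0 in every MCF10A library, so the knockdown could not be checked there. In PC-3M the epithelial keratins KRT8 and KRT18 and the prostate factor HOXB13 were present, while the androgen-regulated KLK3 lay under the filter on low values.

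In PC-3M, 3 of the 9 genes rose with KMT9a siRNA, 3 fell and 3 did not pass the test. CBS and CTH, the 2 transsulfuration enzymes, and MTRR, which keeps methionine synthase active, fell 1.98-fold, 1.36-fold and 1.54-fold. MTR, methionine synthase itself, MAT2A, the SAM synthetase, and MTAP, the salvage enzyme, rose 1.35-fold, 1.25-fold and 1.17-fold. AHCY, AHCYL1 and MAT2B had 95% intervals that included no change. Of all 14958 genes tested in this line, 74.5% passed the same threshold (adjusted p under 0.05), 37.3% with a rise and 37.2% with a fall, so that 6 of 9 is near the share of all genes. In 6 of the 9 genes the libraries of the groups did not overlap, which held for 77.0% of all tested genes. The median log2 change of the 9 genes was -0.03, beside 0.00 over all tested genes, whose quartiles were -0.54 and 0.55. Levels below are CPM scaled by the trimmed mean of M-values (TMM), and log2 changes are differences of log2(scaled value + 1), tested with limma and adjusted over all tested genes. In a bulk sample, fewer cells of a kind and less RNA per cell cannot be told apart.

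**Figure D1:**
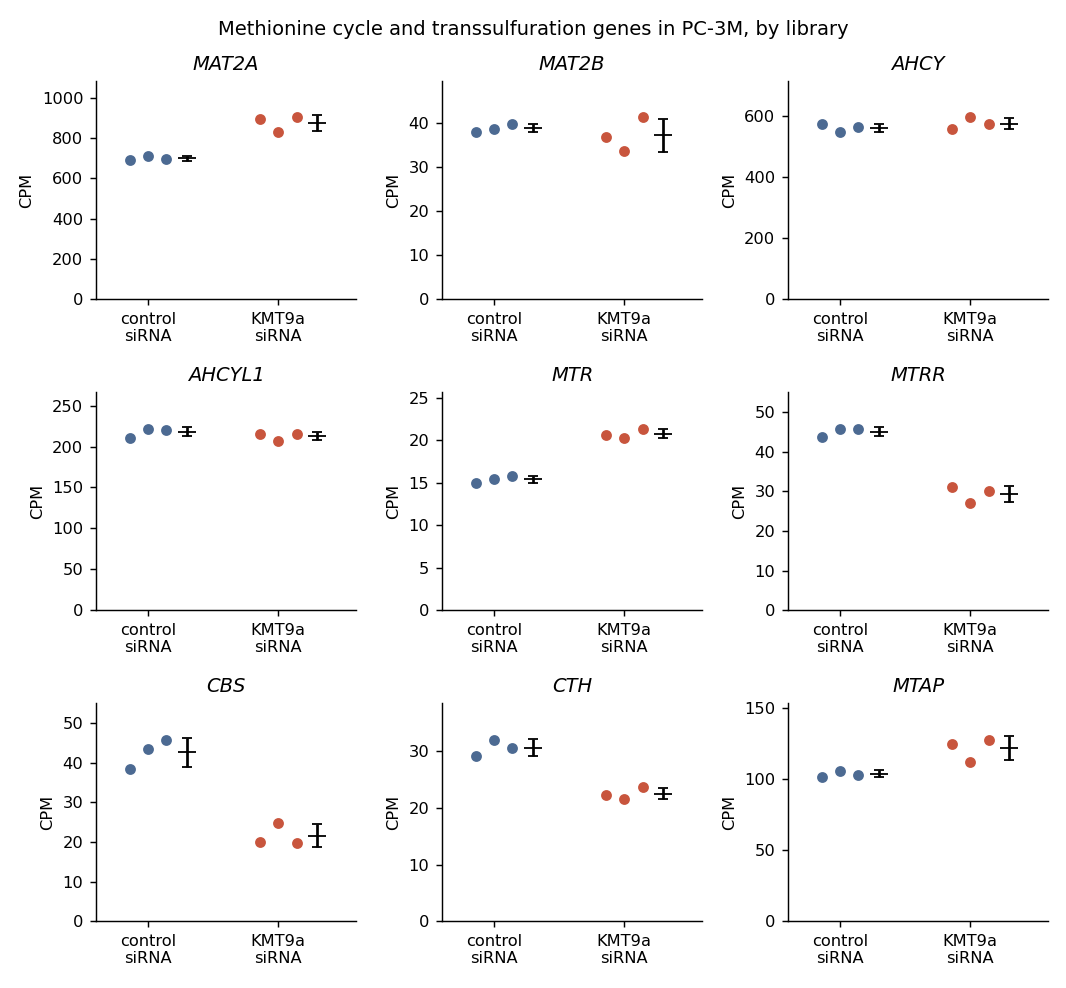
TMM-scaled CPM of each of the 9 genes in PC-3M, by library, with axes from 0; points are the 3 control siRNA libraries (blue) and the 3 KMT9a siRNA libraries (red), and bars give mean ± SD (n = 3). CBS, MTRR and CTH sit lower in all KMT9a libraries, MTR, MAT2A and MTAP sit higher, and MAT2B, AHCY and AHCYL1 overlap between the groups.

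CBS showed the largest change of the 9. It encodes cystathionine beta-synthase, which condenses homocysteine with serine and so commits sulfur to cysteine, and it lies at chr21:44473301-44496040 on the minus strand of hg19, the build of the files. The control libraries held 38.5, 43.4 and 45.8 CPM and the KMT9a libraries 20.0, 24.9 and 19.8 CPM. The groups were separated by a wide gap, and the KMT9a library 2, which stands apart over all genes, was the highest of its group. The means were 42.6 ± 3.72 and 21.6 ± 2.85 CPM (SD, n = 3), and the log2 change was -0.98 (SE 0.0955, 95% interval -1.19 to -0.78, limma adjusted p = 1e-06). Without KMT9a library 2 the log2 change was -1.09 (limma adjusted p = 2.15e-14). When all transcript rows were fitted, the 3 CBS rows of the table gave log2 changes between -0.99 and -0.98.

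CTH encodes cystathionine gamma-lyase, the next enzyme of transsulfuration, which cleaves cystathionine to cysteine, and it lies at chr1:70876901-70905534 on the plus strand of hg19. Its level was 29.1, 32.0 and 30.6 CPM in the control libraries and 22.2, 21.6 and 23.6 CPM in the KMT9a libraries. All KMT9a libraries lay below all control libraries. The log2 change of -0.44 (SE 0.0692, 95% interval -0.59 to -0.29) passed the test (limma adjusted p = 7.71e-05), with means of 30.6 ± 1.48 and 22.5 ± 0.997 CPM (SD, n = 3). Both genes of the branch thus fell, and CBS fell further: the CBS to CTH ratio of CPM per kilobase within a library was 1.10, 1.12 and 1.24 in controls and 0.746, 0.951 and 0.696 with KMT9a siRNA. That ratio does not depend on how the libraries are scaled to each other. An exact two-sided permutation test of it gave p = 0.10, the smallest value that 3 libraries against 3 allow (0.15 adjusted over 6 such ratios).

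On the remethylation arm the enzyme and its reactivating partner moved in opposite directions. MTR, methionine synthase, transfers a methyl group from folate to homocysteine on a cobalamin cofactor, and lies at chr1:236958581-237067281 on the plus strand. It was measured at 15, 15.5 and 15.8 CPM with control siRNA and at 20.6, 20.3 and 21.4 CPM with KMT9a siRNA. The groups did not overlap and each varied little. MTR rose by a log2 change of 0.43 (SE 0.0706, 95% interval 0.28 to 0.58, limma adjusted p = 0.00012), from 15.4 ± 0.413 to 20.8 ± 0.539 CPM (SD, n = 3).

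MTRR encodes methionine synthase reductase, which returns the oxidised cobalamin of MTR to its active form, and lies at chr5:7869217-7901235 on the plus strand. It stood at 43.6, 45.6 and 45.8 CPM in controls and at 31.0, 27.0 and 30.1 CPM after KMT9a siRNA. Every KMT9a library lay below every control library. MTRR fell by 0.62 on the log2 scale (SE 0.0682, 95% interval -0.77 to -0.47, limma adjusted p = 3.33e-06), from 45.0 ± 1.19 to 29.3 ± 2.11 CPM (SD, n = 3). Per kilobase of transcript, MTRR was 9.37 ± 0.085 times as abundant as MTR in control libraries and 4.53 ± 0.278 times with KMT9a siRNA (SD, n = 3; exact permutation p = 0.10). This ratio had the clearest separation of the 6 computed, with control libraries between 9.30 and 9.47 and KMT9a libraries between 4.26 and 4.81. FASTKD3, which runs away from MTRR on the opposite strand with 67 bases between the annotated genes, had a log2 change of -0.22 (limma adjusted p = 0.115).

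MAT2A encodes the catalytic subunit of the SAM synthetase found outside the liver, and lies at chr2:85766101-85772403 on the plus strand. Control libraries held 689, 710 and 697 CPM and KMT9a libraries 895, 830 and 903 CPM. The KMT9a libraries were all higher, with library 2 the lowest of them. The means of 699 ± 10.8 and 876 ± 40.0 CPM (SD, n = 3) gave a log2 change of 0.33 (SE 0.0471, 95% interval 0.22 to 0.43, limma adjusted p = 3.87e-05). GGCX, the vitamin K-dependent carboxylase gene on the opposite strand at chr2:85771978-85788657, overlaps the 3′ end of MAT2A and had a log2 change of 0.19 (limma adjusted p = 0.00381). The sources used here do not say whether counting used strand, so reads in the overlap cannot be told apart.

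MAT2B, the regulatory subunit that modulates the MAT2A enzyme, lies at chr5:162932585-162946328 on the plus strand. Its level was 37.8, 38.6 and 39.6 CPM in controls and 36.7, 33.6 and 41.2 CPM with KMT9a siRNA. The KMT9a libraries spread on both sides of the controls. The log2 change was -0.06 with a 95% interval of -0.23 to 0.10 (limma adjusted p = 0.468), and 0.01 without KMT9a library 2 (limma adjusted p = 0.868). The ratio of MAT2A to MAT2B per kilobase went from 12.4 ± 0.294 to 16.3 ± 1.05 (SD, n = 3), with no overlap between groups (exact permutation p = 0.10).

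AHCY encodes S-adenosylhomocysteine hydrolase, which removes the product that inhibits methyltransferases, and lies at chr20:32868071-32891215 on the minus strand. It was measured at 573, 547 and 561 CPM with control siRNA and at 557, 594 and 572 CPM with KMT9a siRNA. The groups overlapped, and the log2 change was 0.04 with a 95% interval of -0.06 to 0.13 (limma adjusted p = 0.492). AHCYL1 encodes a protein related to AHCY that binds the inositol trisphosphate receptor, and lies at chr1:110527387-110566364 on the plus strand. Its libraries held 211, 222 and 220 CPM against 215, 207 and 215 CPM, again with overlap, and the log2 change was -0.03 with a 95% interval of -0.13 to 0.07 (limma adjusted p = 0.533). With TMM scaling the interval of both genes excludes a change as large as that of MAT2A. This did not hold with library totals, where AHCYL1 was at -0.21, AHCY at -0.14 and MAT2A at 0.15.

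MTAP encodes methylthioadenosine phosphorylase, which starts the salvage of the methylthioadenosine left by polyamine synthesis, and lies at chr9:21802635-21865969 on the plus strand, in a region near CDKN2A that many tumours lose. It was present in PC-3M, at 102, 106 and 103 CPM in controls and 125, 112 and 128 CPM with KMT9a siRNA. The groups did not overlap, although KMT9a library 2 came close to the controls. The log2 change was 0.23 (SE 0.0584, 95% interval 0.10 to 0.36, limma adjusted p = 0.00341), from 104 ± 2.31 to 122 ± 8.30 CPM (SD, n = 3). With library totals in place of TMM, described next, MTAP did not pass the test.

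The scaling of the libraries decided 4 of the 9 calls. TMM assumes that most genes do not change, whereas with library totals alone the median log2 change of all tested genes was -0.17. On that scale AHCY was at -0.14 (limma adjusted p = 0.0126), in the opposite direction, AHCYL1 at -0.21 (limma adjusted p = 0.00171) and MAT2B at -0.24 (limma adjusted p = 0.016), and MTAP was at 0.05 (limma adjusted p = 0.445). With library totals 8 of the 9 genes passed, 2 higher and 6 lower, and over all genes 4384 were higher and 6821 lower, against 5580 and 5561 with TMM. CBS, MTRR, CTH, MTR and MAT2A kept their direction and passed under both scalings.

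**Figure D2:**
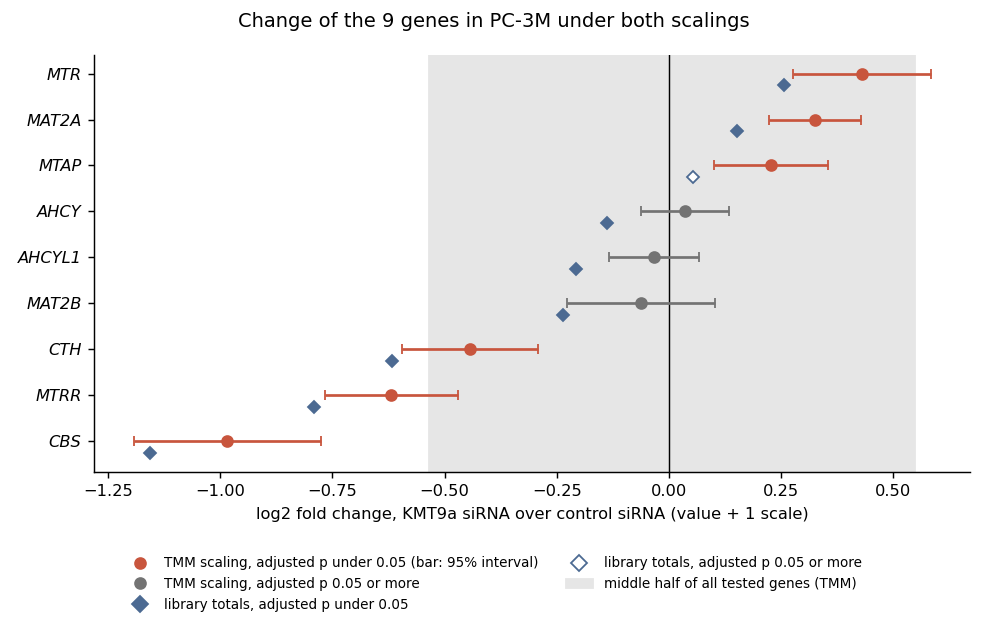
Log2 fold change of the 9 genes in PC-3M (x axis, log2 of the scaled value + 1), ordered by size; circles with 95% intervals are TMM-scaled, diamonds use library totals, filled where the adjusted p is under 0.05, and the grey band is the range between the quartiles of all tested genes. CBS (-0.98) and MTRR (-0.62) lie outside the band, and every diamond lies to the left of its circle.

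The authors' deposited table gives log2 changes close to these for all 9 genes in PC-3M. The authors' deposited table lists CBS at -1.0, MTRR at -0.65, CTH at -0.47, MTR at 0.40, MAT2A at 0.30 and MTAP at 0.20, each with an adjusted p-value under 0.05. It lists MAT2B at -0.09, AHCY at 0.01 and AHCYL1 at -0.06, none of them under that threshold in the authors' deposited table.

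The order of the transcript levels was set by length-corrected CPM (CPM per kilobase of the transcript row). In control libraries AHCY came first at 256 ± 5.89, followed by MAT2A at 234 ± 3.60, AHCYL1 at 50.8 ± 1.29, MTAP at 21.1 ± 0.471 and MAT2B at 18.8 ± 0.448 CPM per kilobase (SD, n = 3). CBS at 16.6 ± 1.46, CTH at 14.4 ± 0.699 and MTRR at 13.8 ± 0.365 followed, where CBS overlapped CTH and CTH overlapped MTRR between libraries, and MTR was last at 1.47 ± 0.0394 CPM per kilobase. With KMT9a siRNA MAT2A led at 293 ± 13.4, above AHCY at 263 ± 8.36 CPM per kilobase, so that the leading enzymes changed places. CBS dropped below CTH and MTRR, to 8.43 ± 1.12 CPM per kilobase, and overlapped MTRR at 8.98 ± 0.646, while CTH stood at 10.6 ± 0.471. The ratio of MAT2A to AHCY within a library was 0.880, 0.950 and 0.909 in controls and 1.18, 1.02 and 1.16 with KMT9a siRNA (exact permutation p = 0.10). The ratio of AHCY to AHCYL1 overlapped between groups, at 5.04 ± 0.242 and 5.29 ± 0.280 (SD, n = 3; exact permutation p = 0.40). The ratio of MTAP to AHCY also overlapped, at 0.0826 ± 0.00374 and 0.0947 ± 0.00893 (SD, n = 3; exact permutation p = 0.20, or 0.24 adjusted over the 6 ratios).

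**Figure D3:**
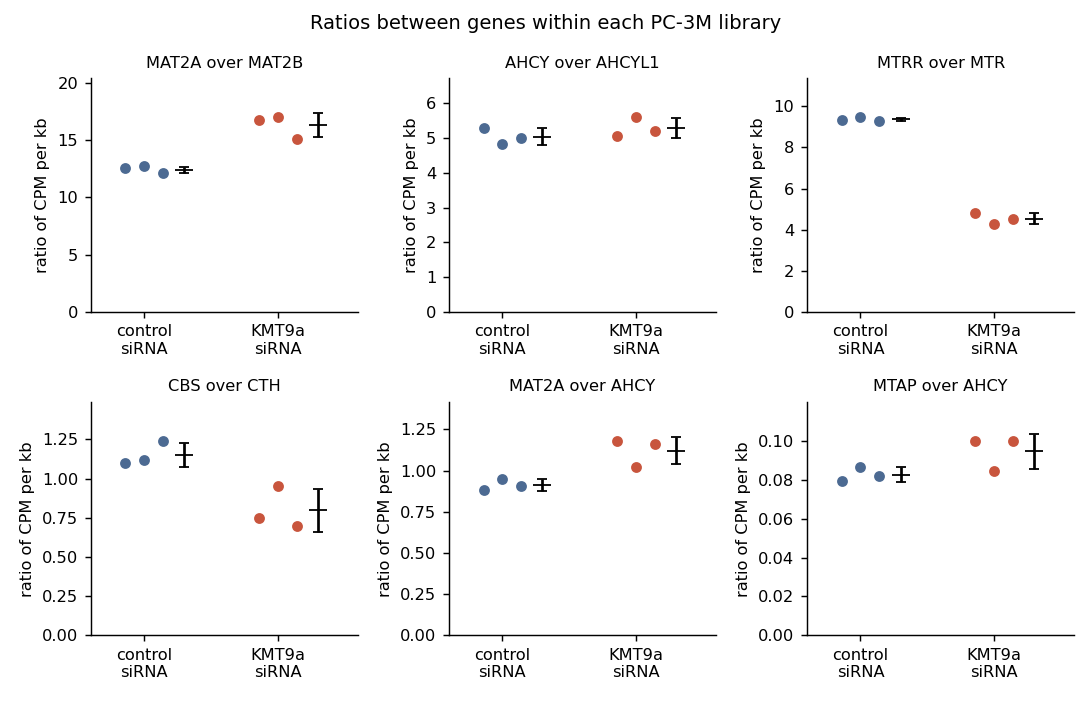
Ratios of length-corrected CPM between pairs of the 9 genes within each PC-3M library, with axes from 0; blue points are control siRNA libraries, red points KMT9a siRNA libraries, and bars give mean ± SD (n = 3). The MTRR to MTR ratio shows the widest gap, from 9.30 and above to 4.81 and below, while AHCY to AHCYL1 overlaps.

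The transcripts whose pattern over the 6 PC-3M libraries lay nearest to CBS, by Euclidean distance of centred log2 values among 14958 tested genes, were RNF208 at 0.109, PRKCH at 0.128 and MIR3656 at 0.134. Nearest to MTRR were PJA2 at 0.0354, SAR1A at 0.0588 and PLEKHA1 at 0.063. Their log2 changes were -0.997, -1.03 and -0.89, and -0.61, -0.65 and -0.59. The distance describes likeness over 6 libraries that share 2 conditions, and with 74.5% of all genes past the threshold many genes share such a pattern.

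Promoter sequence was read from RefSeq windows on GRCh38.p14, which run from 250 bases before to 50 bases after an annotated start, and 8 of the 9 genes had at least 1 window, 16 in all. The 4 windows below belong to the 2 transsulfuration genes, which fell, and to MTR and MAT2A, which rose, so that the starts of genes that moved in either direction can be set side by side. They are CBS at chr21:43076328-43076627 on the minus strand (the first of 3 windows), CTH at chr1:70411018-70411317, MTR at chr1:236795031-236795330 (the first of 2) and MAT2A at chr2:85538918-85539217, the last 3 on the plus strand. Each is printed from 5′ to 3′, and capitals mark letters that match a searched motif on either strand.
CBS: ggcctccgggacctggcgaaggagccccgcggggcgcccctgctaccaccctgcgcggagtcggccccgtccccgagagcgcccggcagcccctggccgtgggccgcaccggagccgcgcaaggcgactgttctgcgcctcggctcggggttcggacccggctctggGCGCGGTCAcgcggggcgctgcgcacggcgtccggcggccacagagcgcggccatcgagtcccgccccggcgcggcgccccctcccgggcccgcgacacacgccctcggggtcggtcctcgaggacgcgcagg
CTH: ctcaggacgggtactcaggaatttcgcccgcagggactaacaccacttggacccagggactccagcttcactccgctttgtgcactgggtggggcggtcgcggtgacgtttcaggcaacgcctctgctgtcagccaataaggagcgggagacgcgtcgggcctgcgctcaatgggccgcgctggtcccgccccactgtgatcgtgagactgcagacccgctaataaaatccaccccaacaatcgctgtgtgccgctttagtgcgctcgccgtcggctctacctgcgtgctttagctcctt
MTR: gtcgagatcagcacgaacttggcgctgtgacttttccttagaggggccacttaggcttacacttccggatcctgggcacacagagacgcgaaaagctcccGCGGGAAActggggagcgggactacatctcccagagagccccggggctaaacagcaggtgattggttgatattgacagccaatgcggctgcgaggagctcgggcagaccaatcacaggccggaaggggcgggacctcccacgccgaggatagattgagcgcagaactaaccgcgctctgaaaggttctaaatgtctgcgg
MAT2A: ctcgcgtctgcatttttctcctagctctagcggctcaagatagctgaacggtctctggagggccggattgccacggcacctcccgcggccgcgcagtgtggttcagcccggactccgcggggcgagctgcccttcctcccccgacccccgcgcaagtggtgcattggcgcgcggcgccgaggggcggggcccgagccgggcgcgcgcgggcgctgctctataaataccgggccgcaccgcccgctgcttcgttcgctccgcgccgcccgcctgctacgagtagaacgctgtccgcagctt
The CBS window held 1 match to TGACNNNGC, the core of the antioxidant response element, at position 168 from the 5′ end. The other windows of CBS held no match to any searched motif. Windows were taken by gene symbol and not matched to the transcript row that was tested. The MTR window held 1 match to TTTCCCGC, an E2F site, at position 101. Neither motif was in the CTH or MAT2A window. None of these 4 windows held CACGTG, the E-box bound by MYC and MAX, TGATGNAAN, the C/EBP-ATF response element that marks many amino acid starvation genes, or TTTGGCGC, another form of the E2F site. Over all 35116 windows, TGACNNNGC was in 13.3%, TTTCCCGC in 1.63%, CACGTG in 7.26%, TGATGNAAN in 3.61% and TTTGGCGC in 0.652%. Among the other genes' windows, AHCY had 1 TTTCCCGC match in the first of 3 windows and AHCYL1 had 1 TGACNNNGC match in the first of 3. The motifs do not overlap each other in these windows. The GC content was 80.7% for CBS, 61.7% for CTH, 58.7% for MTR and 71.0% for MAT2A. A match says only that the letters are there.

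Genes that feed and drain the cycle were followed as lists, chosen with earlier results of these data known, and their counts stand beside the 37.3% of all tested genes that were higher and the 37.2% that were lower. METTL16, which binds MAT2A RNA and controls its splicing according to the SAM supply in human cells, went from 53.7 ± 1.64 down to 30.8 ± 1.16 CPM (SD, n = 3), with a log2 change of -0.80 (limma adjusted p = 8.99e-08). In the list of SAM and adenosine handling, 1 of 5 genes was higher and 2 were lower (74.5% of all tested genes were called), with a median log2 change of -0.23. NT5E, which makes adenosine outside the cell, was higher (0.74, limma adjusted p = 1.42e-05), and SLC25A26, the mitochondrial SAM carrier, was lower (-0.23, limma adjusted p = 0.021). The SLC25A26 call was lost without control library 1 (limma adjusted p = 0.055), without control library 3 (0.0932) or without KMT9a library 1 (0.0906). ADA, adenosine deaminase, was at -0.41 and did not pass (limma adjusted p = 0.0628); with library totals 4 of the 5 genes were lower.

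On the salvage and polyamine side, 4 of 14 genes were higher and 7 lower, a share called near the 74.5% of all tested genes, with a median log2 change of -0.18. SRM, spermidine synthase, fell from 232 ± 7.53 to 112 ± 14.1 CPM, a log2 change of -1.05 (limma adjusted p = 5.78e-08). ODC1, ornithine decarboxylase, the entry enzyme of polyamine synthesis, rose from 927 ± 21.9 to 1560 ± 52.9 CPM (0.75, limma adjusted p = 1.08e-08). Both catabolic enzymes among the 4 genes of smallest p rose: SAT1, spermidine/spermine acetyltransferase, from 78.4 ± 7.75 to 206 ± 5.32 CPM (1.40, limma adjusted p = 1.48e-09), and SMOX, spermine oxidase, from 9.39 ± 0.171 to 26.0 ± 3.95 CPM (1.45, limma adjusted p = 3.87e-08; all SD, n = 3). PAOX, a polyamine oxidase also on the list, was at -0.65 and did not pass (limma adjusted p = 0.146).

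The folate and cobalamin genes, which supply the methyl group and the cofactor of MTR, counted 3 higher and 10 lower of 15, beside 37.3% higher and 37.2% lower over all tested genes, with a median log2 change of -0.41. MTHFD1, the cytosolic enzyme that interconverts one-carbon folates, went from 246 ± 9.17 to 120 ± 4.51 CPM, a log2 change of -1.04 (limma adjusted p = 1.77e-09). SHMT2, the mitochondrial serine hydroxymethyltransferase, went from 454 ± 5.72 to 250 ± 20.8 CPM (-0.86, limma adjusted p = 2.96e-08). MTHFD1L, which releases mitochondrial formate, went from 61.1 ± 2.58 to 39.0 ± 1.5 CPM (-0.65, limma adjusted p = 6.79e-07). ABCD4, which helps to export cobalamin from lysosomes, went the other way, from 25.2 ± 0.356 to 38.1 ± 1.59 CPM (0.60, limma adjusted p = 2.1e-06).

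Downstream of CTH, the genes of cysteine use, glutathione and sulfide counted 6 higher and 6 lower of 14 tested, beside 37.3% higher and 37.2% lower over all tested genes, with a median log2 change of 0.01. With library totals 4 were higher and 7 lower. CDO1 was under the filter. SQRDL, the mitochondrial sulfide quinone oxidoreductase, rose from 1.94 ± 0.129 to 22.0 ± 1.09 CPM (3.47, limma adjusted p = 2.36e-11), and CHAC1, which degrades glutathione and is induced by amino acid stress, fell from 42.7 ± 4.52 to 8.05 ± 1.08 CPM (-2.40, limma adjusted p = 6.56e-10). The 2 enzymes that make the sulfate donor PAPS diverged: PAPSS2 fell from 68.5 ± 2.93 to 29.7 ± 0.689 CPM (-1.20, limma adjusted p = 1.72e-09) and PAPSS1 rose from 47.5 ± 0.377 to 87.8 ± 3.47 CPM (0.89, limma adjusted p = 1.32e-08).

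Of the 8 genes listed for the uptake of methionine and cystine, 5 were lower and 3 higher, beside 37.2% and 37.3% of all tested genes, with a median log2 change of -0.83. With library totals 5 were lower and 2 higher. SLC7A5, the large neutral amino acid carrier LAT1, fell from 698 ± 13.2 to 275 ± 24.6 CPM (-1.34, limma adjusted p = 7.89e-10). SLC43A1, another carrier of large neutral amino acids, fell from 26.6 ± 0.749 to 9.12 ± 0.669 CPM (-1.54, limma adjusted p = 2.94e-09). SLC7A11, the cystine importer that gives cells cysteine without transsulfuration, fell from 469 ± 17.8 to 230 ± 21.9 CPM (-1.03, limma adjusted p = 1.85e-08). SLC38A2, a sodium-coupled carrier of small neutral amino acids, rose from 850 ± 59.6 to 1760 ± 127 CPM (1.05, limma adjusted p = 1.25e-08; all SD, n = 3).

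Among small-molecule methyltransferases, which spend SAM, 3 of 8 tested genes were higher and 5 lower, beside 37.3% and 37.2% of all tested genes, with a median log2 change of -0.29. With library totals 2 were higher and 5 lower. GAMT, the last enzyme of creatine synthesis, fell by 1.23 on the log2 scale (limma adjusted p = 2.66e-07) and COQ5, of coenzyme Q synthesis, by 0.43 (limma adjusted p = 7.35e-05). HNMT, which methylates histamine, rose by 1.14 (limma adjusted p = 1.06e-07) and AS3MT, which methylates arsenic, by 1.79 from a low level of 0.364 ± 0.0767 CPM (SD, n = 3; limma adjusted p = 2.41e-05). Of the liver-type enzymes and paralogs, MAT1A, the liver form of the SAM synthetase, was listed at 0 in all PC-3M libraries. BHMT, which remethylates homocysteine with betaine, had 0 to 8 read ends per library. AHCYL2, the paralog of AHCYL1, was at 31.1 ± 0.861 and 32.0 ± 1.44 CPM (SD, n = 3; log2 change 0.04, limma adjusted p = 0.576; -0.13 with library totals, limma adjusted p = 0.0955), and GNMT, a liver enzyme that disposes of excess SAM, had a log2 change of 0.40 from under 1 CPM (limma adjusted p = 0.192). Markers of other cell types moved too: the summed level of 7 leukocyte and endothelial markers was 0.562 to 0.906 CPM in controls and 4.17 to 5.92 CPM with KMT9a siRNA. The sums in this paragraph are CPM of library totals without TMM, unlike the levels of single genes. LYZ and PECAM1 carried that sum, VWF was at 0 in every library, and PTPRC had 2 to 23 read ends. The 7 fibroblast and muscle markers summed to 53.4 to 55.8 and 30.0 to 37.8 CPM, nearly all of it COL1A1, with DCN at 0. The 9 genes listed for MCF10A identity summed to 157 to 168 CPM in PC-3M controls and 312 to 406 CPM with KMT9a siRNA. CDKN2A and CDH3 made up most of that sum. MCF10A cells are known to have lost CDKN2A, so the sum is no measure of MCF10A identity. Of the 4 tested genes of this list, CDKN2A (103 ± 2.12 to 321 ± 56.9 CPM), TP63 (0.156 ± 0.0433 to 0.976 ± 0.185 CPM) and KRT6A (0.0718 ± 0.0355 to 0.332 ± 0.0761 CPM) rose, and CDH3 was at 49.9 ± 3.90 and 47.5 ± 3.11 CPM (SD, n = 3). KRT5, KRT14 and KRT17 were under the filter, and DSG3 was at 0. The part of these markers in the results for the 9 genes was not tested.

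**Figure D4:**
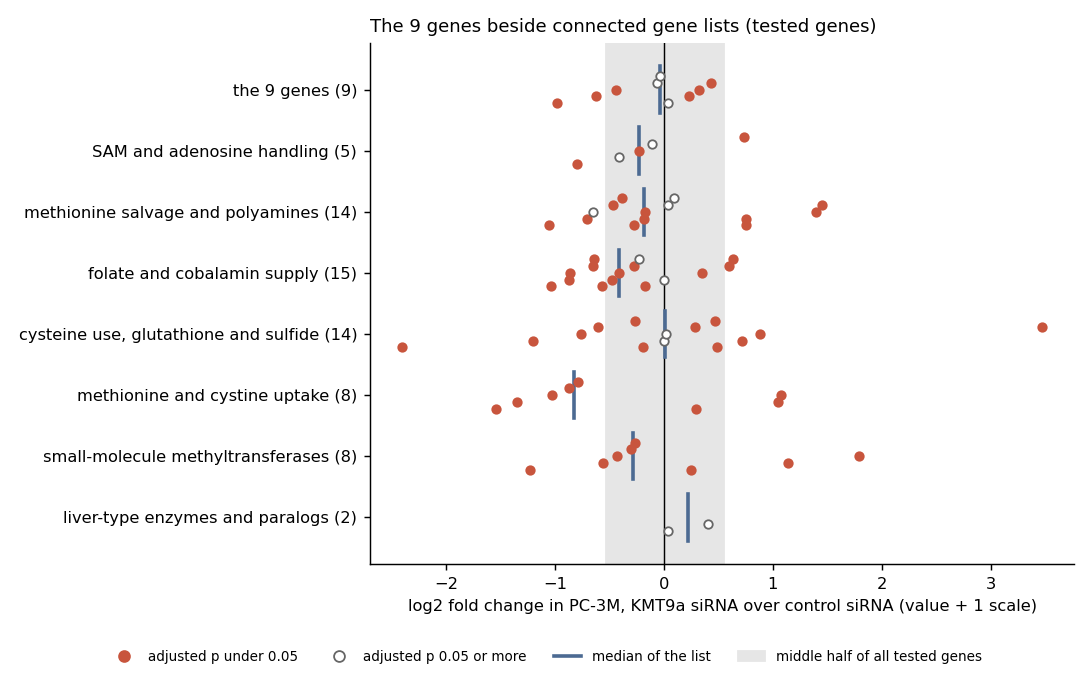
Log2 fold change in PC-3M of the tested genes among the 9 and in 7 connected lists (x axis, log2 of the scaled value + 1), with the number of tested genes in brackets; filled points passed an adjusted p of 0.05, blue bars are list medians and the grey band is the range between the quartiles of all tested genes. Of the 9 genes, CBS and MTRR lie outside the band, and the uptake list has a median of -0.83.

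In MCF10A only MAT2A and AHCYL1 had enough reads to be tested, and neither passed. MAT2A was measured at 5350, 5670 and 5220 CPM in the control libraries and at 8790, 26300 and 6660 CPM in the KMT9a libraries. The groups did not overlap, as for 28.2% of the genes tested in this line, and the KMT9a library that stands apart was by far the highest. The log2 change was 1.09 (SE 0.462, 95% interval 0.03 to 2.16, limma adjusted p = 0.329; unadjusted p = 0.0451 from the same limma fit). Without KMT9a library 2 it was 0.48 and passed (limma adjusted p = 0.00545), and with control libraries 1 and 2 averaged it was 1.10 (limma adjusted p = 0.664). With no filter on low values it was 0.96 and also passed (limma adjusted p = 0.00225).

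AHCYL1, here on the row at chr1:110543549-110566364, was at 521, 587 and 569 CPM in the MCF10A controls and at 437, 147 and 550 CPM with KMT9a siRNA. The groups overlapped, and KMT9a library 2 was far below the others, with 18 read ends. The log2 change was -0.74 (SE 0.457, 95% interval -1.79 to 0.31, limma adjusted p = 0.425), -0.20 without that library (limma adjusted p = 0.569) and -0.75 with control libraries 1 and 2 averaged (limma adjusted p = 0.673). In all, 5 of 1049 genes (0.477%) passed the test in MCF10A, and 152 had an unadjusted limma p under 0.05. Of the 9 genes 0 passed with limma, edgeR, DESeq2 or limma-voom, and 1, MAT2A, had an unadjusted limma p under 0.05. In the authors' deposited table MAT2A has a log2 change of 1.2 and AHCYL1 of -0.57 in MCF10A, both with an adjusted p-value of 1.

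The other 7 genes were at or near 0 in MCF10A. MTR, CTH and MTAP were listed at 0 in all 6 libraries, MAT2B and CBS had 1 read end in all, and AHCY and MTRR had 2, all of these in control libraries. At the share of reads that it took in PC-3M controls, AHCY would have had 108 to 152 read ends per MCF10A library and MTAP 20.0 to 28.2, while MTR would have had 2.96 to 4.18 per library and 20.4 over the 6 libraries, where 0 were observed. MAT2A, at 1128 to 3216 read ends per library, was above the 134 to 190 that its PC-3M share would give. AHCYL1, at 18 to 145 against 41.9 to 59.1, was above it in all libraries but KMT9a library 2. CDKN2A, the neighbour of MTAP that MCF10A cells are known to have lost, was also listed at 0, but in libraries where GAPDH had at most 16 read ends a lost gene and an uncaptured transcript cannot be told apart. A count of 0 allows up to 23.5 to 33.1 CPM in a single library and 9.79 CPM over the 3 control libraries together. These limits are CPM of library totals without TMM, taken as 3 read pairs and for counting error only.

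**Figure D5:**
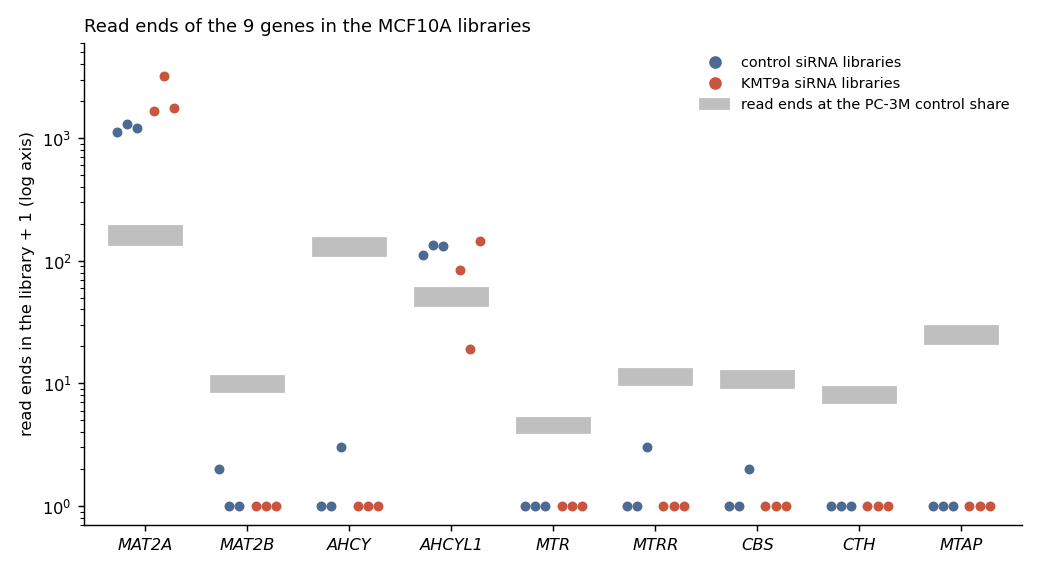
Read ends of the 9 genes in each MCF10A library (y axis, read ends + 1, logarithmic); blue points are control siRNA libraries, red points KMT9a siRNA libraries, and grey blocks span the read ends expected over the 6 libraries at the share of reads the gene took in PC-3M controls. MAT2A lies far above its block, AHCY and MTAP far below theirs.

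The change of MAT2A in PC-3M minus its change in MCF10A was -0.76 on the log2 scale (SE 0.458, z test on both limma fits, adjusted p = 0.195), from 0.33 and 1.08. For AHCYL1 the difference was 0.71 (SE 0.463, adjusted p = 0.236 from the same limma fits), from -0.03 and -0.74, both on the PC-3M row. Neither difference passed the test, which 26.9% of 1016 genes did. Without MCF10A KMT9a library 3 both differences passed, at -1.15 for MAT2A (z test adjusted p = 0.019) and 1.07 for AHCYL1 (z test adjusted p = 0.0424). Without KMT9a library 2 the differences were -0.16 and 0.16 (z test adjusted p = 0.369 and 0.527). The z test takes a normal reference and ignores the few residual degrees of freedom, so its p-values are too small.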

How the data were processed

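Total RNA was the extracted material, per the labels, of 12 libraries of 2 human cell lines, 3 per group, with groups and replicate numbers from the titles. Each line's deposited table has 38763 RefSeq transcript rows and 6 columns of signal. The processing records name hg19 as the build, and that the signal was scaled is inferred from its values. The same tables hold the authors' deposited log2 fold changes and p-values, used here only for comparison. STAR, HOMER and edgeR are named in the submitters' processing notes; versions, settings and strand handling are not given in the sources used here. 1182 rows without a gene annotation stayed in the tables under their own identifiers.

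All deposited signal values above 0 were whole multiples of a step specific to the library (100% within 0.1 step), and reads were recovered on that basis. Even multiples made up 53.9% to 67.1% of the values from 1 to 20 steps; from this excess 1 step was taken as a read end and 2 as a pair, a reading inferred from the values and not stated in the sources used here, on which read numbers, floors and count tests rest. A filter of edgeR (minimum count 10, minimum total 15, on recovered reads) kept 14958 PC-3M genes and 1049 MCF10A genes. Tests used limma 3.58.1 in R 4.3.3 with a trend on log2(TMM-scaled value + 1), for each table on its own because of its separate scaling, with Benjamini-Hochberg adjustment and a threshold of 0.05. Folds of low genes are understated on this scale. Ratios were tested by exact two-sided permutation, and the difference between lines by a z statistic from both fits. The edgeR 4.0.16 test on recovered reads gave 5595 PC-3M genes as higher and 5552 as lower. Alternatives changed the scaling, filter, pseudocount, test (also DESeq2 1.42.0 and limma-voom), transcript rows, replicate block and libraries. Chosen after seeing the data were the difference between lines without each MCF10A library, the alternatives for gene lists, and GAPDH, ACTB, EEF1A1 and RPLP0 as common genes. The scripts were tested on simulated counts.

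The 9 genes and the lists were chosen with earlier results of these data known. Named are all 9 genes, up to 4 tested genes of smallest p in PC-3M per list, partner or paralog enzymes, the KMT9 subunits, and the 3 nearest patterns to the 2 genes of largest change; the motifs were chosen with the results known. No column of per-sample values was left out. The reads carry no molecular identifiers and may repeat a molecule, so floors cover counting error only.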

Additional observations from a re-analysis of the deposited data

How the results depend on the processing

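In PC-3M, CBS, MTRR, CTH, MTR and MAT2A kept their direction and passed under all 18 alternatives, with log2 changes of -1.16 to -0.93, -0.79 to -0.56, -0.62 to -0.41, 0.26 to 0.45 and 0.15 to 0.37. With library totals the log2 change of AHCY was -0.1381, and without KMT9a replicate 2 that of MAT2B was 0.0108 (-0.1555 to 0.0108 over the libraries left out), both opposite in sign to the reported value; MTAP lost its call only with library totals. The number of the 9 genes past the threshold was 6 under every alternative but library totals, where it was 8. Genes past the threshold in PC-3M numbered 8745 to 11814. The 8745 came from a filter at a mean of at least 5 CPM, which changes how many genes are tested. Under the other alternatives the count was 10426 to 11814. In MCF10A the 5 genes became 0 with control replicates 1 and 2 averaged, 51 with DESeq2, 1 with library totals, 8 with limma-voom, 66 with no filter, and 0 to 170 when 1 library was left out, the 170 without KMT9a replicate 2. Of the 9 genes 1 passed in MCF10A with no filter, and 0 to 1 with 1 library left out. The count of genes whose change differed between the lines ran from 141 to 443 with 1 MCF10A library left out, against 273. Of 55 list genes called in PC-3M, 9 lost the call under at least 1 of 9 alternatives and 0 reversed; the causes were not tested.

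With the replicate number as a block (replicate block), 10943 genes and the same number of the 9 genes, 6, passed in PC-3M, and 0 genes and 0 of the 9 passed in MCF10A. After subtraction of the group means, same-numbered libraries correlated at -0.041, -0.021 and 0.037 in PC-3M and at -0.071, 0.14 and 0.16 in MCF10A. With 3 libraries per group these values cannot settle whether the numbers pair the samples. In MCF10A the depth and the near absence of common transcripts limit every statement on the 7 untested genes. The cause of that absence was not tested.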
